A study of Mus musculus with 20 samples.

Results

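The genes that encode the mitochondrial respiratory chain and the ATP synthase were examined in the left hippocampus of 20 female mice. They comprised the 13 protein-coding genes of the mitochondrial genome (symbols starting with mt-) and the nuclear protein-coding genes whose symbols start with Ndufa, Ndufb, Ndufc, Ndufs, Ndufv, Uqcr, Cox4 to Cox8 or Atp5, together with Sdha, Sdhb, Sdhc and Sdhd. Of 39056 genes in the count table, 106 had such a symbol, and 104 of these had at least 10 counts in at least 5 libraries (16193 of all genes did). The 104 genes were the 13 mitochondrially encoded genes and 91 of 93 nuclear genes: 44 of complex I, including its Ndufaf assembly factors, 4 of complex II, 8 of complex III, 18 of complex IV and 17 of complex V. The genes were thus chosen by name and by a count minimum, with earlier results of these data known. No comparison between groups entered the rule itself. The mice, littermates on a C57BL/6 background, formed 4 groups of 5. WT Non-Tg mice carried neither modification, and KO Non-Tg mice lacked miR-34a in the whole body. WT Tg-SwDI mice expressed human APP with the Swedish, Dutch and Iowa mutations from the neuronal Thy1 promoter, and KO Tg-SwDI mice carried both. Behaviour had been tested at 12 months of age, and the mice were perfused with PBS before the left hippocampus was taken. The data hold females only, 1 brain region, and a constitutive knockout, so that acute and developmental loss of the microRNA cannot be told apart.

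Oxidative phosphorylation is the product of both genomes of the cell. Complexes I, III and IV pass electrons from NADH through ubiquinone and cytochrome c to oxygen and pump protons, complex II feeds electrons in from succinate without pumping, and complex V (the ATP synthase) uses the proton gradient to make ATP. Mitochondrial DNA encodes the membrane-embedded core of complexes I, III, IV and V and no subunit of complex II, and it is transcribed from both strands as long polycistronic RNAs that are cut at the tRNAs. The remaining subunits are transcribed in the nucleus, translated in the cytosol and imported. In the hippocampus most of this ATP is spent on ion pumping and synaptic transmission.

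Each library held 19549622 to 21066868 counts. Thy1, whose promoter drives the transgene, ranged from 684 to 769 CPM (counts scaled to a common library size with TMM factors) over the 10 mice without the transgene and from 1903 to 3316 CPM over the 10 with it, which matched the labels of all 20; the miR-34a gene itself was not analysed here. The hippocampal markers fixed for the tissue were expressed in all libraries, with a summed level of 938 to 1135 CPM. Choroid plexus markers, which belong to the tissue beside the hippocampus, split the libraries: Ttr, the transthyretin of that epithelium, was at 1690 to 3895 CPM in 11 libraries (3 WT Non-Tg, 0 KO Non-Tg, 4 WT Tg-SwDI and 4 KO Tg-SwDI) and at 29.8 to 277 CPM in the other 9. KO Tg-SwDI replicate 8 stood apart from the other 19 libraries in the measures below, and the results that rest on it are given with and without it. Because the samples were whole tissue, fewer cells of a type and less RNA per cell cannot be told apart. P-values judge differences between group means against the spread between mice.

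Counts on the mitochondrial genes were read in the light of sequence, because a nuclear copy of part of the mitochondrial genome lies on mouse chromosome 1. In the mm10 build, 7 annotated unprocessed pseudogenes between positions 24611535 and 24616197 of chromosome 1 (4663 bases, minus strand) copy part of mt-Co1, mt-Co2, mt-Atp6, mt-Co3, mt-Nd3, mt-Nd4l and part of mt-Nd4, in the order of the mitochondrial genome. A gap of 233 bases (24614652 to 24614884) between the copies of mt-Atp6 and mt-Co2 holds no annotated gene. The first 120 bases of the mt-Co2 coding sequence (chrM:7013-7132, plus strand) and of its copy Gm28661 (chr1:24615446-24615565, minus strand) are shown first, since no base differs between them and a read from either place matches both:
mt-Co2: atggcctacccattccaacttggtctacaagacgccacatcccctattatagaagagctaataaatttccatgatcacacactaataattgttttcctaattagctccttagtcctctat
Gm28661: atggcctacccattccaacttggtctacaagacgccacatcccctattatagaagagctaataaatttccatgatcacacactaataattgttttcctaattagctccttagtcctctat
The first 90 bases of mt-Nd3 (chrM:9459-9548, plus strand) and of its copy Gm28438 (chr1:24613030-24613119, minus strand) follow, with the only difference in capitals, T3C (counted from 1 at the first base of mt-Nd3, the mitochondrial base first):
mt-Nd3: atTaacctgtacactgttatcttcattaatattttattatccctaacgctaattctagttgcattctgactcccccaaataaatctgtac
Gm28438: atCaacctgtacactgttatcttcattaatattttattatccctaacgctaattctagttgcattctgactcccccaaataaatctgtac
The last pair shows where the copy of mt-Co1 begins, at position 1054 of the gene (chrM:6381-6470, plus strand) and in Gm29216 (chr1:24616108-24616197, minus strand). Capitals mark the 6 differing bases T1056A, C1057T, A1059G, A1060G, C1062A and A1066T (counted from the first base of mt-Co1), all at the edge of the copy:
mt-Co1: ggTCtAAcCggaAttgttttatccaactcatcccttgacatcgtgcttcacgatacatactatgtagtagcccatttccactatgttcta
Gm29216: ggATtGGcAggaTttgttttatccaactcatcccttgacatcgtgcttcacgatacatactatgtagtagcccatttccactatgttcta

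The 13 mitochondrial genes fell into 2 classes of count. Genes copied almost whole lay in the low class, and mt-Co1 and mt-Nd4, which are copied in part, in the high class. mt-Atp8 lay in the low class without an annotated copy. For mt-Co2, mt-Atp6, mt-Co3, mt-Nd3 and mt-Nd4l, 97.6% to 99.9% of all 100-base windows of the transcript also occur in the copies, and these 5 genes had 12 to 1416 counts per library together with mt-Atp8. The latter overlaps mt-Atp6 by 43 bases, had the lowest counts of the 13, and shares 0 of its 105 windows with any annotated transcript of another gene outside the mitochondrial genome. Only annotated transcripts were searched. A copy of mt-Atp8 in the unannotated gap between the mt-Co2 and mt-Atp6 copies would not have been seen. The other 7 genes, mt-Nd1, mt-Nd2, mt-Co1, mt-Nd4, mt-Nd5, mt-Nd6 and mt-Cytb, had 30385 to 916354 counts per library; of these, mt-Co1 shares 30.8% of its windows with the copies and mt-Nd4 60.8%. Per kilobase of transcript, the mean level over the 20 mice was highest for mt-Co1, the catalytic subunit of cytochrome c oxidase (19542 CPM per kb), followed by mt-Nd1 (14254), mt-Cytb, the haem-carrying core of complex III (11138), mt-Nd2 (7124), mt-Nd4 (5806), mt-Nd5 (4082) and mt-Nd6 (3629). The low class lay at 5.07 CPM per kb for mt-Atp8 to 148 CPM per kb for mt-Nd3. How the counting treated reads that match several places is not given in the sources used here, so few messages and uncounted reads cannot be told apart for the low class. The same holds for the shared parts of mt-Nd4 and mt-Co1, so their place in the order per kilobase is uncertain. The strand setting of the counting is not given either, which bears on mt-Nd6, the only one of the 13 encoded on the light strand.

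**Figure D1:**
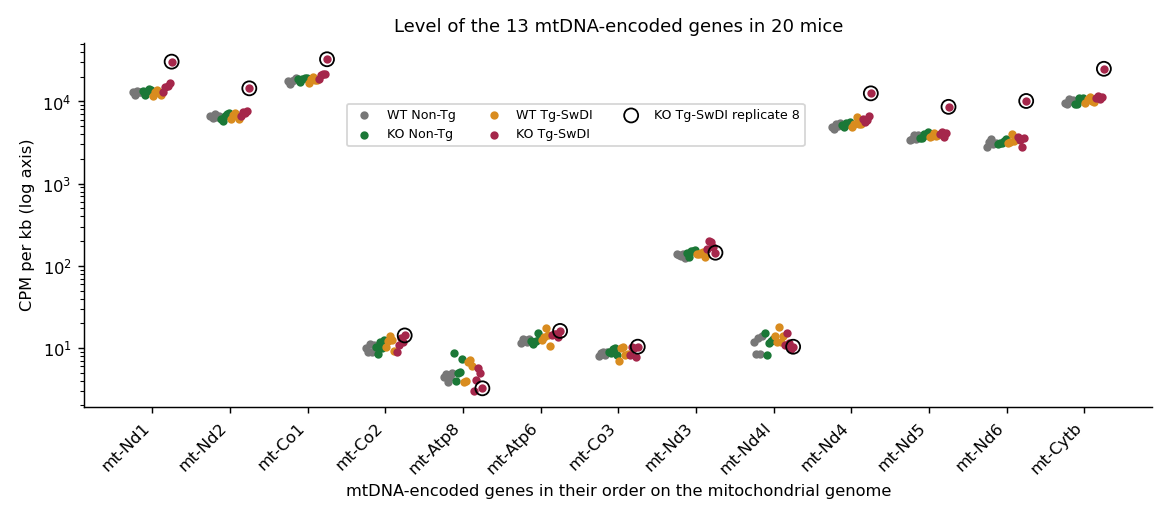
Level of each of the 13 mitochondrially encoded genes (CPM per kb of transcript, log axis), in their order on the mitochondrial genome; each point is 1 of 20 mice in the colour of its group, and a ring marks KO Tg-SwDI replicate 8. The 7 genes with 30385 or more counts per library stand apart from the 6 genes with 1416 or fewer, and in the former KO Tg-SwDI replicate 8 lies above all other mice.

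The mitochondrially encoded genes took 7.31, 6.94, 7.74, 7.39 and 7.80% of all counts in the 5 WT Non-Tg mice, 7.47, 7.10, 7.79, 7.95 and 8.04% in the KO Non-Tg mice, 7.19, 7.82, 8.31, 7.53 and 7.32% in the WT Tg-SwDI mice and 8.11, 8.37, 8.40, 8.76 and 14.6% in the KO Tg-SwDI mice. The first 3 groups overlapped, and every KO Tg-SwDI mouse lay above every KO Non-Tg mouse. The 91 nuclear genes took 0.757% to 0.935% of all counts and overlapped between all groups. The ratio of the summed counts of the 2 genomes, which needs no library scaling, was 7.94, 7.73, 8.28, 7.92 and 8.60 in the WT Non-Tg mice, 8.81, 8.07, 8.71, 8.77 and 8.93 in the KO Non-Tg mice, 8.17, 8.43, 9.28, 9.08 and 8.52 in the WT Tg-SwDI mice and 9.01, 9.95, 9.01, 9.86 and 19.2 in the KO Tg-SwDI mice. On the log2 scale the ratio was 3.02 ± 0.0606 (SD, n = 5) for WT Non-Tg, 3.11 ± 0.0579 for KO Non-Tg, 3.12 ± 0.0766 for WT Tg-SwDI and 3.44 ± 0.464 for KO Tg-SwDI, or 3.24 ± 0.0791 (n = 4) without replicate 8. KO Tg-SwDI thus had the highest group mean with and without that library; without it the KO Tg-SwDI values, 9.01 to 9.95, did not overlap those of KO Non-Tg (8.07 to 8.93) and overlapped those of WT Tg-SwDI (8.17 to 9.28). The ratio sums over the genes examined and was given no test. It rests on the 7 high-count genes, which held 99.9% of the mitochondrial counts in every library.

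**Figure D2:**
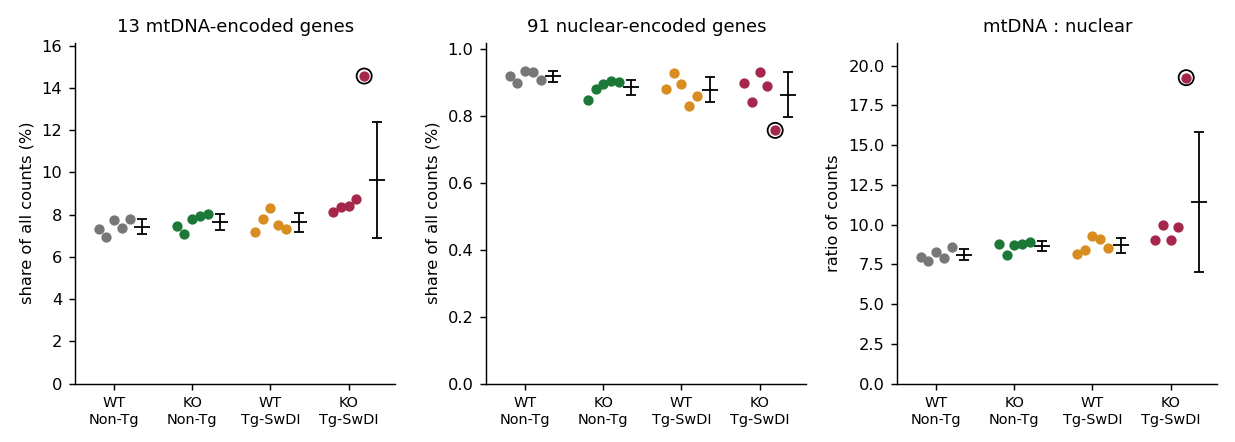
Share of all counts (percent) taken by the 13 mitochondrially encoded genes and by the 91 nuclear genes, and the ratio of the 2 sums, in each of the 20 mice by group; points are mice, the dash and bar beside them are the group mean and SD, and a ring marks KO Tg-SwDI replicate 8. Replicate 8 lies at 14.6% and at a ratio of 19.2, and the other 4 KO Tg-SwDI mice lie at 8.11% to 8.76% and at 9.01 to 9.95.

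KO Tg-SwDI replicate 8 was set apart by its high-count mitochondrial genes and by some nuclear genes. Its 7 high-count mitochondrial genes lay at 1.73 to 3.15 times the median of the other 19 libraries, and its 6 low-count ones at 0.659 to 1.32 times. Of the low-count genes, 5 are copied almost whole on chromosome 1, and mt-Atp8 had 12 to 37 counts per library. Their ratios may therefore not follow the messages. The nuclear genes of replicate 8 took the smallest share of the 20 libraries (0.757%). Among the 91 genes, however, 24 had their highest value of all mice there and 36 their lowest. No other library held more than 18 highest or 16 lowest values. The ratio to the median of the other libraries ran from 0.501 to 3.03 over the 91 genes, with a median of 0.932. The summed level of 10 neuronal markers (13928 CPM against 10599 to 12296 in the other 19) was also the highest of all libraries. That of the 7 hippocampal markers was slightly the highest (1135 CPM against 938 to 1132). The share of counts on cytosolic ribosomal protein genes was the lowest (0.953% against 1.01% to 1.35%). Shares of all counts are lowered by the 14.6% on mitochondrial genes. Marker levels in CPM are instead scaled with TMM factors (0.901 in this library), so the 2 measures are not alike. The part of these markers and genes in its mitochondrial values was not tested.

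Loss of miR-34a on the Non-Tg background (KO Non-Tg against WT Non-Tg) moved no gene of the chain past a false discovery rate (FDR) of 0.05 in edgeR's quasi-likelihood test, adjusted over all 16107 genes tested: 0 of 13 mitochondrial and 0 of 91 nuclear genes, where 0.0% of all genes passed. At an unadjusted p under 0.05 there were 0 mitochondrial and 7 nuclear genes (8.08% of all genes), and DESeq2 and edgeR's exact test each called 0. The median log2 fold change was 0.073 over the mitochondrial genes and -0.049 over the nuclear ones, against -0.0021 over all genes. The estimates were narrow for most genes. For mt-Co1, 27540.5 ± 1442 CPM (SD, n = 5) in WT Non-Tg and 28962 ± 1469.9 in KO Non-Tg gave a log2 fold change of 0.073 with a 95% interval of -0.12 to 0.26. The nuclear genes with the lowest adjusted p were Cox8b, the heart and muscle form of subunit VIII (-1.98 ± 0.676 (SE), adjusted p = 0.526), and Atp5g3, which encodes the proton-carrying c subunit of the ATP synthase (-0.17 ± 0.0608, adjusted p = 0.526). The 15 choroid plexus markers had a median log2 fold change of -2.99 here, though 0 passed at FDR 0.05. Ttr was over 1000 CPM in 3 WT Non-Tg and 0 KO Non-Tg libraries. The part of this imbalance in the Cox8b value was not tested.

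The transgene on the WT background (WT Tg-SwDI against WT Non-Tg) gave 0 of 13 and 0 of 91 genes at FDR 0.05, where 4.41% of all genes passed. Unadjusted, 0 mitochondrial and 7 nuclear genes had p under 0.05 (15.2% of all genes), edgeR's exact test called 0, and DESeq2 called Atp5b, the catalytic beta subunit of the ATP synthase, as lower (adjusted p = 0.0479). In the quasi-likelihood test Atp5b had a log2 fold change of -0.11 ± 0.0457 (SE) with adjusted p = 0.221; its values were 1091, 1066, 1117, 1139 and 1019.5 CPM in WT Non-Tg and 1002, 1002, 1018, 993 and 1014 in WT Tg-SwDI, all 5 of the latter below the 5 of the former. Such a lack of overlap was seen for 0 of 13 mitochondrial genes, 3 of 91 nuclear genes and 1077 of all 16107 genes tested. The median log2 fold change was 0.083 over the mitochondrial and -0.044 over the nuclear genes. In the same comparison 7 of 7 microglial markers rose, with a summed level of 347 to 471 CPM in WT Non-Tg and 750 to 889 CPM in WT Tg-SwDI. Of the astrocyte markers 5 of 7 rose (summed level 4750 to 5116 CPM and 6022 to 6893 CPM) and of the oligodendrocyte markers 1 of 7, and 1 of 6 endothelial markers fell; the parts of these cell types in the chain's values were not tested.

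Loss of miR-34a on the Tg-SwDI background (KO Tg-SwDI against WT Tg-SwDI) gave 3 genes at FDR 0.05, all higher: 1 of 13 mitochondrial genes (mt-Nd3) and 2 of 91 nuclear genes (Cox6a1 and Cox6a2). Of all genes tested, 1.99% passed, 1.48% higher and 0.503% lower. The groups did not overlap for 0 mitochondrial and 3 nuclear genes (Cox6a2, Uqcrc1 and Ndufaf8), against 3.16% of all genes. The nuclear shares lie near the background, and the mitochondrial call is a single gene. Which genes passed depended on the fit and on replicate 8. Without that library mt-Nd3, mt-Nd1 and 1 nuclear gene (Cox6a1) passed, where 1.99% of all genes did. For mt-Nd1, a core subunit of complex I, the log2 fold change was 0.52 (adjusted p = 0.0929) with that library and 0.25 (adjusted p = 0.0408) without it. DESeq2 called mt-Nd3 and mt-Co1, edgeR's exact test mt-Nd3, mt-Nd1 and mt-Co1. The mitochondrial median log2 fold change was 0.33 and the nuclear 0.014; without replicate 8 they were 0.072 and 0.042. Among markers of other cell types, 1 of 7 astrocyte and 1 of 7 microglial markers were higher here.

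mt-Nd3 was at 48.2, 46.8, 46.3, 49.0 and 42.8 CPM in the WT Non-Tg mice, at 49.3, 44.5, 53.2, 52.1 and 53.7 in the KO Non-Tg mice, at 48.3, 48.8, 49.8, 51.7 and 44.7 in the WT Tg-SwDI mice and at 56.2, 69.1, 68.4, 58.3 and 50.3 in the KO Tg-SwDI mice. This gene encodes a small core subunit of complex I and is one of the 5 whose reads also match the chromosome 1 copy. Of its 249 windows of 100 bases, 243 also occur in the copies, and how such reads were counted is not given. The counts may therefore come from a small part of the transcript. Whether they follow the level of the message was not tested, so the changes below are changes in counts. In 4 of the 5 KO Tg-SwDI mice mt-Nd3 lay above every mouse of the other groups, and in replicate 8, the last value, it lay within their range. The log2 fold change was 0.31 ± 0.0723 (SE, adjusted p = 0.0256) against WT Tg-SwDI and 0.26 ± 0.0722 (adjusted p = 0.0125) against KO Non-Tg. Without KO Tg-SwDI replicate 8 these were 0.37 (adjusted p = 0.00234) and 0.32 (adjusted p = 0.000692), and mt-Nd3 was the one mitochondrial gene that passed in both comparisons also with a choroid plexus covariate and with the trend over GC content and length removed. Against WT Tg-SwDI it did not pass in 7 of 33 alternatives: with library size alone, with the compared groups alone, with the replicate block, and without WT Tg-SwDI replicate 3, 5 or 7 or KO Tg-SwDI replicate 3 (log2 fold changes of 0.27 to 0.37).

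The transgene on the KO background (KO Tg-SwDI against KO Non-Tg) gave the most calls, 3 of 13 mitochondrial and 16 of 91 nuclear genes (17.6%), where 20.8% of all genes passed (12.5% higher and 8.31% lower). All 3 mitochondrial genes (mt-Co1, mt-Nd3 and mt-Nd4) were higher; of the nuclear genes 13 were higher and 3 lower. Without overlap between the groups were 1 mitochondrial (mt-Nd4) and 7 nuclear genes, against 12.8% of all genes. The nuclear share lies below the background, so the chain as a whole did not stand out in this comparison. The median log2 fold change was 0.31 over the mitochondrial genes, 0.029 over the nuclear ones and -0.0048 over all genes. Without replicate 8 these were 0.12, 0.061 and -0.0034, so that most of the mitochondrial shift rested on 1 library. Leaving it out gave 2 mitochondrial and 12 nuclear calls, 2 and 11 of them shared with the full set, where 18.9% of all genes passed. In this comparison 13 of 15 choroid plexus markers were also higher (summed level 272 to 731 CPM in KO Non-Tg and 421 to 5649 in KO Tg-SwDI, none at 0), as were 7 of 7 microglial, 5 of 7 oligodendrocyte and 4 of 7 astrocyte markers, while 3 of 10 neuronal markers were lower. With the choroid plexus score as a covariate, 1 mitochondrial gene (mt-Nd3) and 0 nuclear genes passed, where 7.39% of all genes did. At an unadjusted p under 0.05 there were 11 nuclear genes, against 18.6% of all genes. The score went largely with the group here, as Ttr was over 1000 CPM in 0 KO Non-Tg and 4 KO Tg-SwDI libraries. A call lost in this fit, here and for the single genes below, therefore cannot tell choroid plexus content from the group difference. With the trend of log2 counts over GC content and length removed, 31 nuclear genes passed, 3 higher and 28 lower, 6 of them shared with the unadjusted set, where 28.9% of all genes passed; in that fit the median log2 fold change was -0.12 over the nuclear genes and -0.084 over all genes, and the calls over all genes turned from 2013 higher and 1338 lower to 1486 higher and 3163 lower. The split between higher and lower nuclear genes thus depended on the fit, and the parts of the other cell types in it were not tested.

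**Figure D3:**
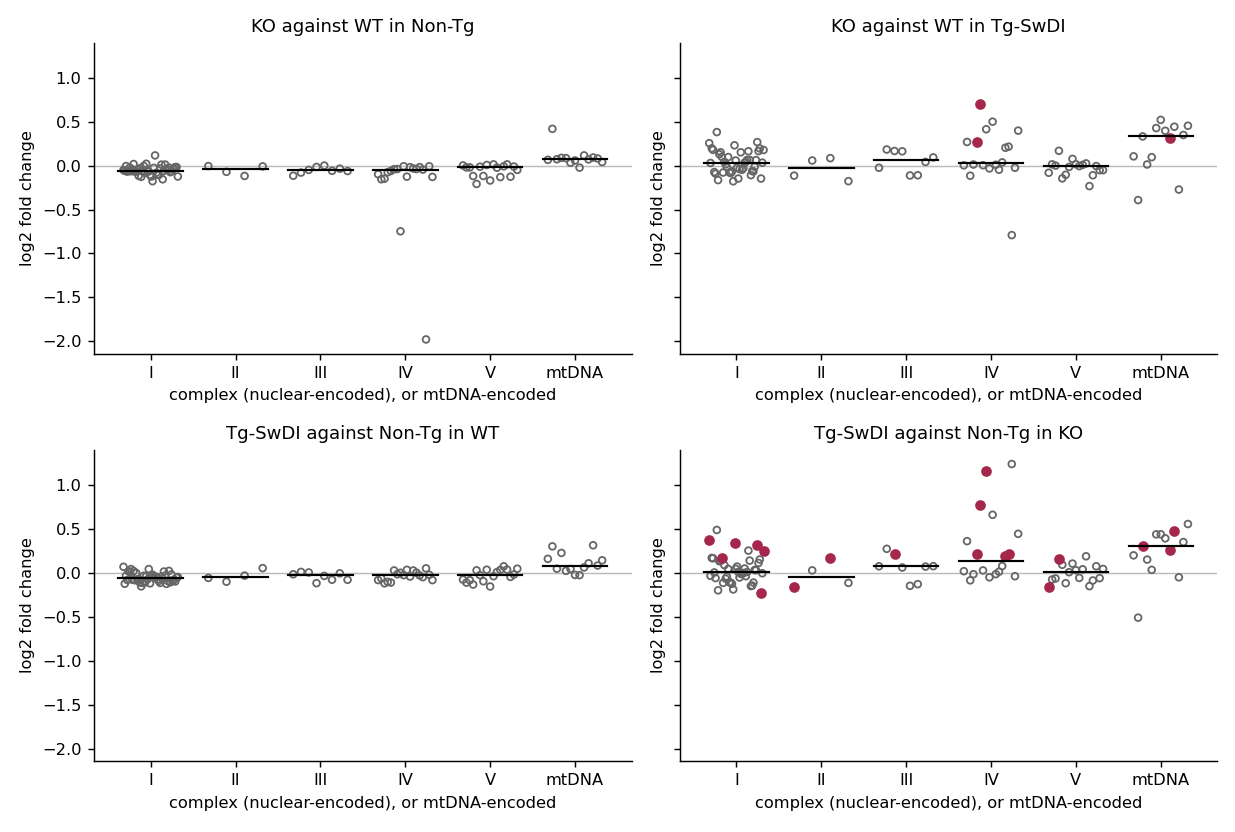
Log2 fold change of each of the 104 genes in the 4 pairwise comparisons, for the nuclear genes by complex and for the 13 mitochondrial genes together; each point is 1 gene, filled where FDR was under 0.05, and short lines are medians. The filled points are 0, 3, 0 and 19 in KO against WT in Non-Tg, KO against WT in Tg-SwDI, Tg-SwDI against Non-Tg in WT and Tg-SwDI against Non-Tg in KO. Of all genes tested, 0.0%, 1.99%, 4.41% and 20.8% passed in that order.

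Among the high-count mitochondrial genes, mt-Nd4, a proton-pumping core subunit of complex I, was at 7186, 6804, 7495, 7361 and 7745 CPM in KO Non-Tg and at 8399, 7826, 8259, 9246 and 17308 CPM in KO Tg-SwDI. All KO Tg-SwDI mice lay above all KO Non-Tg mice, and replicate 8, the last value, lay far above the other 4. The log2 fold change was 0.48 ± 0.165 (SE, adjusted p = 0.0468) and 0.21 (adjusted p = 0.0349) without replicate 8. The call lay close to the threshold and was lost in 22 of 33 alternatives, among them DESeq2 (adjusted p = 0.0535), the choroid plexus covariate (0.32 (adjusted p = 0.415)) and removal of the GC and length trend (0.46 (adjusted p = 0.0652)). For mt-Co1 the values were 29197, 26434, 29229, 29780.1 and 30168 CPM in KO Non-Tg and 29410.3, 32469, 33045, 33729 and 50419 in KO Tg-SwDI, a log2 fold change of 0.31 ± 0.0971 (adjusted p = 0.0281) that no longer passed without replicate 8 (0.15, adjusted p = 0.0629), with the covariate (0.24 (adjusted p = 0.288)) or with the trend removed (0.21 (adjusted p = 0.141)). The remaining 5 high-count genes had log2 fold changes of 0.35 to 0.56 and did not pass; without replicate 8 these were 0.055 to 0.17. The 5 low-count genes other than mt-Nd3 had means of at most 10.1 CPM in any group and did not pass in any comparison; the lowest, mt-Atp8, had 12 to 37 counts per library, at which small differences could not be detected.

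Complex I is the largest complex of the chain, and 6 of its 44 nuclear genes passed in KO Tg-SwDI against KO Non-Tg, 5 higher and 1 lower. This share (13.6%) lay below that of all genes (20.8%). Ndufv1 encodes the flavoprotein that takes the electrons of NADH. Ndufv1 was at 114, 121, 113, 124 and 112 CPM in the WT Non-Tg mice, at 109, 116, 119, 117 and 117 in the KO Non-Tg mice, at 108, 107, 114, 103 and 114 in the WT Tg-SwDI mice and at 105, 107, 107, 97.7 and 75.9 in the KO Tg-SwDI mice. All 5 KO Tg-SwDI values lay below the 5 KO Non-Tg values, with a log2 fold change of -0.23 ± 0.0665 (SE, adjusted p = 0.016; -0.15 (adjusted p = 0.0196) without replicate 8). The higher genes were accessory subunits and an assembly factor. Ndufa1 was at 22.6, 20.9, 23.8, 23.6 and 25.9 CPM in the WT Non-Tg mice, at 19.9, 20.7, 23.3, 24.3 and 24.6 in the KO Non-Tg mice, at 21.2, 29.4, 25.3, 22.9 and 23.8 in the WT Tg-SwDI mice and at 24.8, 26.6, 31.0, 29.9 and 33.9 in the KO Tg-SwDI mice. Ndufa1, a small membrane subunit, did not overlap between the KO groups (log2 fold change 0.37 ± 0.0887, adjusted p = 0.00357), nor did the assembly factor Ndufaf8, which was at 8.56, 8.34, 8.05, 8.05 and 9.28 CPM in KO Non-Tg and 11.2, 9.91, 11.4, 10.2 and 10.7 in KO Tg-SwDI (0.34 ± 0.0826, adjusted p = 0.00438). Ndufs6 (0.31 ± 0.079), Ndufv3 (0.25 ± 0.0661) and Ndufa8 (0.16 ± 0.0553) made up the rest, with adjusted p = 0.00604, 0.00759 and 0.0369 in that order. Of the 7 core subunits encoded in the nucleus 1 passed, of the 29 accessory subunits 4 and of 8 Ndufaf assembly factors 1. Ndufa8 lay at 0.12 (adjusted p = 0.1) without replicate 8 and at -0.048 with the GC and length trend removed, where the median over all genes was -0.084.

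Complex II, which carries the flavin and iron-sulphur centres that oxidise succinate and is encoded in the nucleus alone, split in the same comparison. Sdha was at 314, 322, 319.5, 328 and 306 CPM in the WT Non-Tg mice, at 319, 314, 320.4, 318 and 311 in the KO Non-Tg mice, at 311, 298, 311, 302 and 304 in the WT Tg-SwDI mice and at 293, 299, 295, 287 and 235 in the KO Tg-SwDI mice. Sdha, the flavoprotein, was thus lower in all 5 KO Tg-SwDI mice than in any KO Non-Tg mouse (log2 fold change -0.17 ± 0.0504 (SE), adjusted p = 0.0206; -0.11 (adjusted p = 0.0311) without replicate 8). Sdhc, a membrane anchor that holds the haem, was at 77.2, 82.4, 77.1, 76.4 and 82.1 CPM in KO Non-Tg and 82.3, 84.9, 95.7, 88.5 and 93.5 in KO Tg-SwDI, and was higher (0.17 ± 0.05, adjusted p = 0.0168) with a slight overlap. The iron-sulphur subunit Sdhb (0.028 ± 0.0519, adjusted p = 0.75) and the other anchor Sdhd (-0.11 ± 0.0775, adjusted p = 0.316) did not pass. This split depended on the fit, and removal of the GC and length trend moved the median over all genes to -0.084. With the GC and length trend removed Sdha, Sdhb (-0.15 (adjusted p = 0.0303)) and Sdhd (-0.29 (adjusted p = 0.00724)) were lower and Sdhc did not pass (0.06 (adjusted p = 0.358)), and with the choroid plexus covariate none of the 4 passed (adjusted p = 0.243, 0.931, 0.317 and 0.612 for Sdha to Sdhd).

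Of the 8 nuclear genes of complex III, which passes electrons from ubiquinol to cytochrome c, Uqcrb alone passed in KO Tg-SwDI against KO Non-Tg (12.5%, against 20.8% of all genes). Uqcrb was at 65.3, 65.8, 67.9, 68.2 and 76.8 CPM in KO Non-Tg and 67.9, 73.5, 85.1, 81.3 and 92.8 in KO Tg-SwDI (log2 fold change 0.22 ± 0.0702 (SE), adjusted p = 0.028). Without replicate 8 it lay at 0.16 (adjusted p = 0.0827). Uqcr11, a small subunit of this complex, did not pass (0.27 ± 0.105, adjusted p = 0.0718) and was at 102 CPM in replicate 8 against 57.7 to 74.6 CPM in the other 19 mice. The core protein Uqcrc1 did not overlap between KO Tg-SwDI and WT Tg-SwDI and did not pass there in the quasi-likelihood test (0.16 ± 0.0472, adjusted p = 0.0671).

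In complex IV, which reduces oxygen, 5 of 18 nuclear genes passed in KO Tg-SwDI against KO Non-Tg, all higher. This share (27.8%) lay near that of all genes (20.8%), and the difference was not tested. Several of its nuclear subunits come in a common form and a form typical of other tissues, and both forms of subunit VIa were higher. Cox6a1 was at 248, 225, 242, 240.0 and 231 CPM in the WT Non-Tg mice, at 224, 226, 223, 236 and 228 in the KO Non-Tg mice, at 209, 237, 223, 206 and 224 in the WT Tg-SwDI mice and at 240.2, 229, 265, 276 and 314 in the KO Tg-SwDI mice. Cox6a1, the common form, had a log2 fold change of 0.22 ± 0.0619 (SE, adjusted p = 0.0134) against KO Non-Tg and of 0.27 ± 0.062 (adjusted p = 0.0253) against WT Tg-SwDI. With the GC and length trend removed these were 0.073 (adjusted p = 0.331) and 0.14 (adjusted p = 0.218), with the choroid plexus covariate 0.16 (adjusted p = 0.211) and 0.27 (adjusted p = 0.0153), and without replicate 8 0.15 (adjusted p = 0.038) and 0.20 (adjusted p = 0.0373). The call against WT Tg-SwDI was also lost with the compared groups alone, with the replicate block, and without WT Tg-SwDI replicate 3, 5, 6 or 7 or KO Tg-SwDI replicate 5. Cox6a2 was at 6.47, 6.0, 5.87, 6.39 and 3.29 CPM in the WT Non-Tg mice, at 4.88, 5.45, 5.79, 5.80 and 5.32 in the KO Non-Tg mice, at 5.35, 6.52, 6.18, 6.47 and 4.02 in the WT Tg-SwDI mice and at 7.95, 7.04, 8.11, 8.86 and 14.5 in the KO Tg-SwDI mice. Cox6a2, the heart and muscle form, lay above every mouse of the other 3 groups in each KO Tg-SwDI mouse, and had a log2 fold change of 0.77 ± 0.184 (adjusted p = 0.00464) against KO Non-Tg and of 0.70 ± 0.183 (adjusted p = 0.0496) against WT Tg-SwDI. Without replicate 8 the first was 0.56 (adjusted p = 0.0108) and the second 0.49 (adjusted p = 0.0929). With the choroid plexus covariate they were 0.64 (adjusted p = 0.0955) and 0.71 (adjusted p = 0.037), and with the trend removed 0.56 (adjusted p = 0.0213) and 0.61 (adjusted p = 0.0954). Its mean level per kilobase was 9.58 CPM per kb, against 338 for Cox6a1.

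Levels of Cox6b2 and Cox8b moved with the choroid plexus markers. Cox6b2, the testis form of subunit VIb, was at 2.51 to 7.59 CPM in the 11 libraries with Ttr over 1000 CPM and at 1.30 to 1.82 CPM in the other 9, without overlap. The division was seen within WT Non-Tg, WT Tg-SwDI and KO Tg-SwDI. It could not be seen within KO Non-Tg, where 0 libraries had Ttr over 1000 CPM. Cox6b2 values were 3.07, 1.78, 3.0, 1.30 and 4.10 CPM for the WT Non-Tg mice, 1.58, 1.56, 1.74, 1.73 and 1.31 for KO Non-Tg, 3.05, 2.51, 3.04, 2.90 and 1.82 for WT Tg-SwDI and 3.03, 1.36, 2.80, 3.07 and 7.59 for KO Tg-SwDI. Its log2 fold change in KO Tg-SwDI against KO Non-Tg, 1.16 ± 0.356 (SE, adjusted p = 0.0265), became 0.28 (adjusted p = 0.669) with the choroid plexus covariate and 0.70 (adjusted p = 0.0769) without replicate 8. Cox8b, a heart and muscle form, ran from 0.899 to 4.91 CPM in the 11 libraries and from 0.379 to 1.05 CPM in the 9. Cox6a2 did not follow this division: it was at 3.29 to 14.5 CPM in the 11 and at 4.02 to 7.04 CPM in the 9. Cox7a1, another heart and muscle form (0.66 ± 0.26, adjusted p = 0.0731), Cox4i2, the lung form of subunit IV (0.36 ± 0.245, adjusted p = 0.32), and Ndufa4l2, a hypoxia-induced relative of Ndufa4 (0.44 ± 0.179, adjusted p = 0.0795), did not pass. Their common partners Cox4i1 (0.018 ± 0.0667), Cox6b1 (0.027 ± 0.0586), Cox7a2 (-0.015 ± 0.0875) and Ndufa4 (-0.039 ± 0.0537) did not pass either, nor did the supercomplex factor Cox7a2l (0.012 ± 0.0563), while Cox8a (0.21 ± 0.0732, adjusted p = 0.0424) and Cox7c (0.19 ± 0.0588, adjusted p = 0.0227) were higher. Without replicate 8 Cox8a lay at 0.11 (adjusted p = 0.143). Of the 2 genes that missed the count minimum, Cox7b2 had 1 to 9 counts per library and Cox8c 0 in all; the gene nearest above it, Cox8b, had 8 to 103, with 10 or more in 15 libraries.

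**Figure D4:**
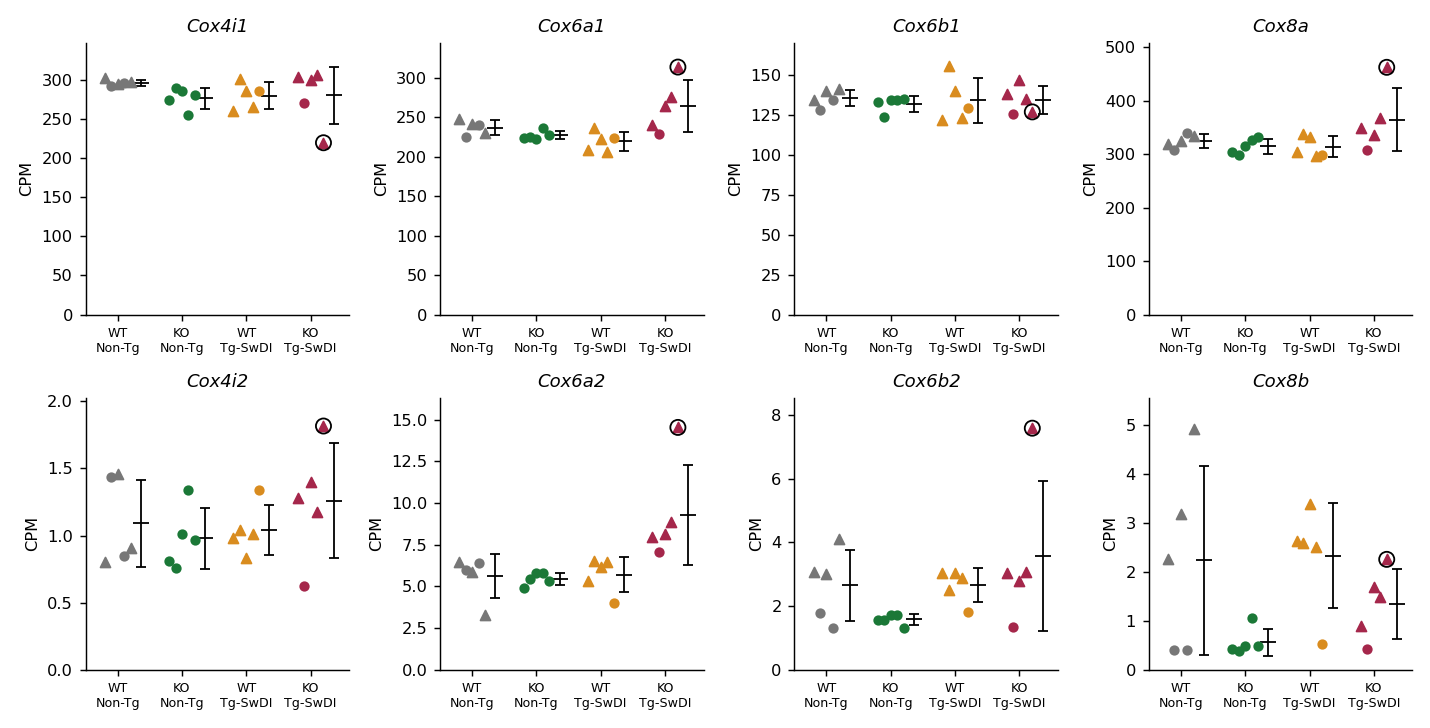
Level (CPM) of the common (upper row) and tissue-typical (lower row) isoforms of 4 complex IV subunits in each of the 20 mice by group; triangles are the 11 libraries with Ttr over 1000 CPM, circles the other 9, a ring marks KO Tg-SwDI replicate 8, and the dash and bar are the group mean and SD. Cox6a2 is highest in the 5 KO Tg-SwDI mice, and Cox6b2 lies at 2.51 CPM or more in each triangle and at 1.82 CPM or less in each circle.

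In complex V 2 of 17 nuclear genes passed in KO Tg-SwDI against KO Non-Tg (11.8%, below the 20.8% of all genes). Atp5a1 was at 773, 777, 781, 788 and 774 CPM in the WT Non-Tg mice, at 748, 772, 809, 784 and 785 in the KO Non-Tg mice, at 751, 721, 756, 724 and 739 in the WT Tg-SwDI mice and at 707, 736, 723, 721 and 602 in the KO Tg-SwDI mice. Atp5a1, the alpha subunit of the catalytic head, was lower in each KO Tg-SwDI mouse than in any KO Non-Tg mouse (log2 fold change -0.16 ± 0.0477 (SE), adjusted p = 0.0187; -0.11 (adjusted p = 0.0381) without replicate 8). Atp5d, the delta subunit of the central stalk, was at 166, 169, 168, 173 and 174 CPM in KO Non-Tg and 178, 171, 186, 193 and 216 in KO Tg-SwDI (0.15 ± 0.0527, adjusted p = 0.0394), and lay at 0.10 (adjusted p = 0.113) without replicate 8 and at -0.021 with the GC and length trend removed. The 3 genes for the identical mature c subunit, Atp5g1 (0.007 ± 0.0489), Atp5g2 (0.10 ± 0.0547) and Atp5g3 (0.029 ± 0.0609), did not pass. The 3 nuclear genes that were lower, Ndufv1, Sdha and Atp5a1, had no overlap between the KO groups, and stayed lower without replicate 8 and with the GC and length trend removed (adjusted p = 0.000744, 0.000687 and 0.000161). Removal of the trend moved the median log2 fold change to -0.12 over the nuclear genes and -0.084 over all genes. Lower calls in that fit therefore add no independent support. With the choroid plexus covariate the 3 genes did not pass (adjusted p = 0.282, 0.243 and 0.154), but that score went largely with the group.

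**Figure D5:**
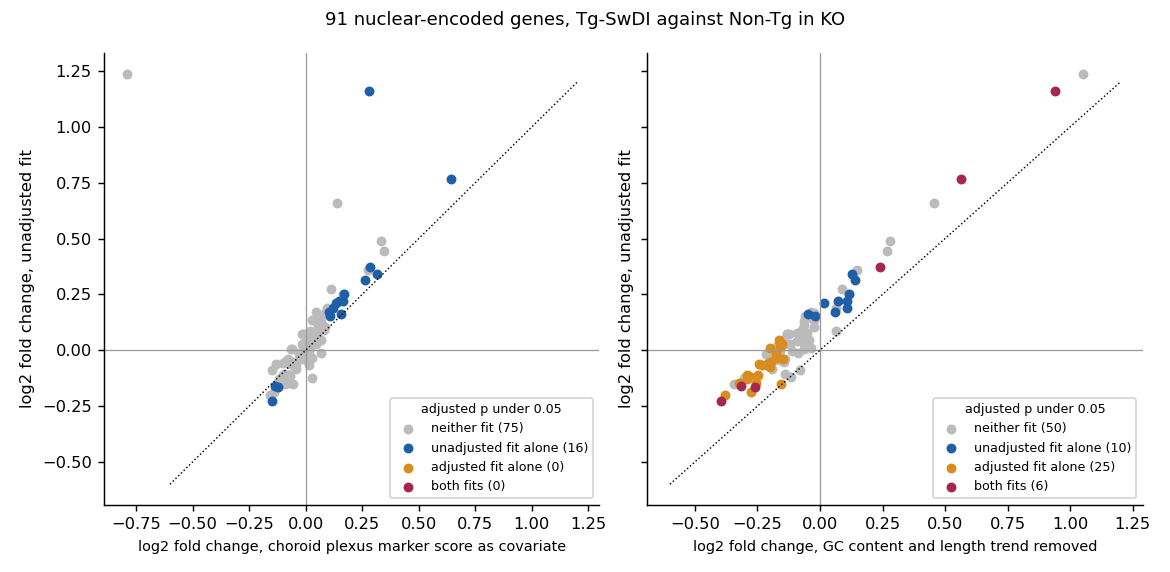
Log2 fold change of the 91 nuclear genes in KO Tg-SwDI against KO Non-Tg in the unadjusted fit (y axis) against the fits with the choroid plexus covariate (left, x axis) and with the GC and length trend removed (right, x axis); each point is 1 gene, coloured by the fits in which its adjusted p was under 0.05, and the dotted diagonal marks equal values. With the choroid plexus covariate 0 nuclear genes passed, and with the trend removed 3 passed as higher and 28 as lower.

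Whether the effect of the transgene differed between WT and KO mice was tested by the interaction. It gave 0 of 13 and 0 of 91 genes at FDR 0.05 in edgeR's quasi-likelihood test, where 0.608% of all genes passed. At an unadjusted p under 0.05 there were 1 mitochondrial and 23 nuclear genes, against 17.5% of all genes, and DESeq2 called 2 nuclear genes, Cox6a1 and Atp5d (adjusted p = 0.0232 and 0.0163). In the quasi-likelihood test Cox6a1 had an interaction of 0.33 ± 0.0876 (SE, log2 scale, adjusted p = 0.0687) and Atp5d of 0.29 ± 0.0745 (adjusted p = 0.0641). In the quasi-likelihood test, the calls in KO mice without calls in WT mice were thus not shown to differ between the genotypes; for Cox6a1 and Atp5d the answer depended on the tool. The comparisons share the KO Tg-SwDI mice or other groups, and their values are not independent.

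Most nuclear genes varied little across mice, though no set of genes of like abundance was set beside them. Over the 20 mice the coefficient of variation of a nuclear gene was 3.81% to 80.2% with a median of 7.80%, against a median of 10.6% over all genes tested, and 83 of 91 lay under 15%. Per kilobase of transcript, mean levels ran from 1.39 to 532 CPM per kb with a median of 41.8. In complex I the highest subunit was Ndufb9 (110.3 CPM per kb) and the lowest Ndufb2 (4.76). In complex II these were Sdha (74.0) and Sdhc (26.0), in complex III Uqcr11 (103) and Uqcrq (41.1), in complex IV Cox8a (532) and Cox4i2 (1.39), and in complex V Atp5b (247) and Atp5l (7.40). The length used is that of all annotated exons of a gene, which lowers the value of genes with many annotated transcripts.

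Other genes that serve the chain moved little. Of all genes tested, 20.8% passed in KO Tg-SwDI against KO Non-Tg, and the counts below are to be read beside that share. In KO Tg-SwDI against KO Non-Tg, of 6 assembly factors of complex III 2 were lower, Ttc19 (-0.19 ± 0.0494, adjusted p = 0.00674, log2 fold change ± SE) and Uqcc1 (-0.19 ± 0.0559, adjusted p = 0.0167), and of 15 tested factors of complex IV Pet100 was higher (0.31 ± 0.105, adjusted p = 0.0349) and Coa7 lower (-0.22 ± 0.0787, adjusted p = 0.0483). Of 13 genes for mitochondrial RNA processing and stability 1 was lower, Lrpprc, whose product protects mitochondrial messages (-0.17 ± 0.051, adjusted p = 0.0192). Of 10 markers of mitochondrial mass 1 was lower, the matrix chaperonin Hspd1 (-0.19 ± 0.0576, adjusted p = 0.019). Tfam, which packages and transcribes mitochondrial DNA, did not pass (-0.22 ± 0.0795, adjusted p = 0.053), and neither did the mitochondrial RNA polymerase Polrmt (-0.037 ± 0.0551, adjusted p = 0.687), the co-activator Ppargc1a (-0.097 ± 0.0783, adjusted p = 0.415), the transcription factor Nrf1 (-0.063 ± 0.0711, adjusted p = 0.576) or cytochrome c, Cycs (0.10 ± 0.0627, adjusted p = 0.273). None of the genes in these lists passed in the other 3 pairwise comparisons or the interaction, in edgeR's quasi-likelihood test. Cytosolic ribosomal protein genes, like most respiratory subunits short and abundantly expressed, were set beside them: of 84 tested, 40 were higher and 0 lower in KO Tg-SwDI against KO Non-Tg (median log2 fold change 0.20) and 9 higher in KO Tg-SwDI against WT Tg-SwDI, while of 77 mitochondrial ribosomal protein genes 6 were higher and 1 lower in the former and 0 passed in the latter. Of all genes, 12.5% were higher against KO Non-Tg and 1.48% against WT Tg-SwDI. The nuclear genes of the chain, with 13 higher and 3 lower of 91, lay nearer the mitochondrial ribosomal protein genes; the difference between the lists was not tested.

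Promoters of the nuclear genes were searched for 3 short motifs named for factors that are known to bind respiratory gene promoters. RefSeq promoter windows (GRCm38.p6, 250 bases before to 50 after the start, both strands searched) were found by symbol for 73 of the 91 genes, in 78 windows. GCATGCGC, the core of the NRF1 motif, was in 12 of the 78 (15.4%) and in 2.71% of all 32851 windows. AAGATGGC, the YY1 motif, was in 10 (12.8% against 2.75%), and CCGGAAGT, an ETS motif of the kind GABPA binds, in 5 (6.41% against 3.89%). The stretches around the NRF1 core are shown for 2 genes that were higher in KO Tg-SwDI against KO Non-Tg and for Sdhb, which was not, with the motif in capitals: Cox6a1 (chr5:115349085-115349144, minus strand), Ndufa8 (chr2:36049313-36049372, minus strand) and Sdhb (chr4:140961191-140961250, plus strand).
Cox6a1: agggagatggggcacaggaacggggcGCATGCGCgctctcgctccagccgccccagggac
Ndufa8: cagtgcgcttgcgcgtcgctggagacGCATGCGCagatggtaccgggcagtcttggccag
Sdhb: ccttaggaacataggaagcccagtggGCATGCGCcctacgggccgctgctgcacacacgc
A match is a stretch of letters and not a measured binding site. Genes with the motif were found among those that passed and those that did not.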

How the data were processed

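Poly(A) RNA of the left hippocampus of 20 mice was sequenced by the authors, 1 library per mouse. Per the labels and the methods, reads were aligned with STAR to mm10 and counted per ENSEMBL gene with featureCounts; versions, strand setting and treatment of reads that match several places are not given in the sources used here. The values deposited by the authors are raw counts per gene, not normalised. Gene names, types, exons and coordinates came from GENCODE M21, which matched 38872 of 39056 identifiers (99.5%).

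Group means of the 4 groups were fitted to the counts in 1 model with edgeR 4.0.16 (R 4.3.3; TMM factors, filterByExpr with a minimum count of 10, robust quasi-likelihood, 16 residual degrees of freedom). P-values were adjusted by Benjamini-Hochberg over the 16107 genes tested, with a threshold of 0.05. CPM used TMM-scaled library sizes. The steps were checked on simulated counts. Alternatives were DESeq2 1.42.0, edgeR's exact test, other filters and scalings, the compared groups alone, a replicate block, a choroid plexus marker score as covariate, removal of a spline trend (5 degrees of freedom) over GC content and length, and leaving out each library. Windows of 100 bases of each mitochondrial transcript were matched to annotated transcripts.

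The genes and the lists set beside them were chosen with earlier results of these data known. Genes named were the 13 mitochondrial genes, the 4 of complex II, in each comparison up to 5 nuclear genes each way with the largest change past the threshold (or the 2 with the lowest adjusted p), the isoform families of complexes IV and V, the highest and lowest subunit per kb in each complex, and those that missed the count minimum. Others (Ndufv3, Ndufa8, Uqcrb, Uqcrc1, Cox7c and the genes of other lists) were named after their values were seen. Libraries of 19549622 to 21066868 counts leave counting error small for all but the lowest genes.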

Additional observations from a re-analysis of the deposited data

Results flagged for a closer look

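In each group of 5 mice, a value was picked out where its gap to the nearest other mouse took more of the group's range than Dixon's 95% critical value allows; 196 such groups were examined, of which chance picks about 1 in 20, and 20 values were picked out, 14 of them in KO Tg-SwDI replicate 8. In that mouse they were the share of counts on mitochondrial genes (14.6%), the ratio of the 2 genomes (19.2), and the levels of mt-Nd1 (29207 CPM), mt-Nd2 (15002 CPM), mt-Co1 (50419 CPM), mt-Nd4 (17308 CPM), mt-Nd5 (15700 CPM), mt-Nd6 (5264 CPM) and mt-Cytb (28590 CPM), all of them high. Among nuclear genes Cox6a2 (14.5 CPM), Cox6b2 (7.59 CPM) and Uqcr11 (102 CPM) were high there, and Sdha (235 CPM) and Atp5a1 (602 CPM) low. All 7 high-count mitochondrial genes were thus picked out in this mouse, and none of the 6 low-count ones. The counts of the latter may not follow the messages, as 5 are copied almost whole on chromosome 1 and mt-Atp8 had few counts.

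In KO Non-Tg replicate 2 the ratio of the 2 genomes (8.07), mt-Co1 (26434 CPM) and Cox6b1 (124 CPM) were low against its group. KO Non-Tg replicate 7 was high for Cox8b (1.05 CPM) and Uqcrq (83.8 CPM), and WT Non-Tg replicate 7 was low for Cox6a2 (3.29 CPM). No cause was tested for any of these values.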

How the results depend on the processing

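KO against WT in Non-Tg and the mitochondrial genes in Tg-SwDI against Non-Tg in WT and in the interaction gave 0 calls under every alternative run. For KO against WT in Tg-SwDI, the mitochondrial count (1) was 2 with DESeq2, 3 with edgeR's exact test, 0 with library size alone, with the compared groups alone and with the replicate block, and 2 with replicate 8 of KO Tg-SwDI left out and the choroid plexus covariate; it ran from 0 (without WT Tg-SwDI 3, 5 or 7, or KO Tg-SwDI 3) to 3 (without KO Tg-SwDI 1) when 1 library was left out, with 2 without KO Tg-SwDI 2 or 8. The nuclear count (2) was 6 with DESeq2, 4 with the exact test and with the choroid plexus covariate, 1 with no filter, with library size alone and with the GC and length trend removed, and 0 with the compared groups alone, with the replicate block, and with both replicate 8 and the trend removed; it ran from 0 (without WT Tg-SwDI 3, 5, 6 or 7, or KO Tg-SwDI 5) to 10 (without KO Tg-SwDI 2), and was 1 without most other libraries.

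For Tg-SwDI against Non-Tg in KO, the mitochondrial count (3) was 6 with the exact test and 1 with the compared groups alone, the covariate, the trend removed, and either of these without replicate 8; it ran from 1 (without KO Non-Tg 2 or 4) to 5 (without KO Tg-SwDI 1). The nuclear count (16) was 7 with the compared groups alone, 0 with the covariate, 1 with the covariate and without replicate 8, and 31 (3 higher, 28 lower) with the trend removed; it ran from 11 to 29 (without KO Tg-SwDI 2). In Tg-SwDI against Non-Tg in WT, the nuclear count (0) was 1 with DESeq2, 2 with the trend removed, 1 with the covariate and without replicate 8, and 14, all lower, with the trend removed and without replicate 8. The nuclear interaction count (0) was 2 with DESeq2 and 1 with no filter, and ran from 0 to 3 (without KO Tg-SwDI 2; 2 without KO Tg-SwDI 1, 1 without WT Tg-SwDI 4). The fits that combined replicate 8 left out with another setting were chosen after seeing the data. Single genes reversed with the trend removed: Ndufa8 (-0.048, and -0.0807 without replicate 8), Atp5d (-0.0207 and -0.0608), and Cox8a (-0.0545, without replicate 8 only). The median over all genes in these fits was -0.084, and -0.087 without replicate 8, so the reversed values lay above it. The causes were not tested.

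The log2 ratio of the genomes differed by 0.0974 in KO against WT in Non-Tg (0.081 to 0.12 leaving out 1 library), 0.33 in KO against WT in Tg-SwDI (0.12 to 0.39), 0.10 in Tg-SwDI against Non-Tg in WT (0.079 to 0.13) and 0.33 in Tg-SwDI against Non-Tg in KO (0.13 to 0.40), with an interaction of 0.23 (0.023 to 0.30); the lowest values of the comparisons with KO Tg-SwDI were those without its replicate 8. With every gene weighted equally it was 0.16 in KO against WT in Non-Tg and -0.0147 in the interaction. Replicate numbers are shared between groups, but same-numbered mice did not deviate together (16 pairs, r from -0.404 to 0.154, over 0.1 in 2; 1 of 20 libraries was nearest to a mouse of its number), so the block has no basis in the design; it moved the calls over all genes in KO against WT in Tg-SwDI from 320 to 8. The interaction had no exact test, no fit of compared groups alone and no ratio by paired numbers. For mt-Atp8, with 12 to 37 counts per library, depth limits what can be detected.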
